A study of Mus musculus with 8 samples.

Results

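The levels of 9 long noncoding RNA genes were followed across the livers of 8 male mice given HFCD, a diet rich in fat and lacking choline, among the 49585 genes of the count table. The 9 were listed by name. Gm42047 was placed on the list because its counts in these same livers were lower with each genotype step, that is, it was chosen by the values reported here, which are therefore given as a description without a test. The other 8 were Malat1, Neat1, Kcnq1ot1, Meg3, Pvt1, Gas5, Snhg1 and Snhg12, all of which passed the filter on low counts and were tested with 16496 genes in all. The genotypes compared were 3 LP+/+, 2 LPfl/+ and 3 LP245/+ mice, each fed HFCD for 3 months from day 21 of life. The LP+/+ mice carried no Alb-Cre and kept 1 engineered allele in its unrecombined state, Trp53fl/+ in replicates 1 and 2 and Trp53wm-R245W/+ in replicate 3. The LPfl/+ mice were Alb-CreTG, Trp53fl/+, and 1 copy of Trp53 is deleted where Cre is active. The LP245/+ mice were Alb-CreTG, Trp53wm-R245W/+, and 1 copy is switched from wild type to the R245W missense form. Alb-Cre acts in hepatocytes and bile duct cells, and the other liver cells keep the unrecombined allele. Cre and the Trp53 lesion were present in the same mice, so the effect of Cre and that of the lesion cannot be told apart.

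Long noncoding RNAs act as RNA, without being translated. Malat1 and Neat1 are transcribed from neighbouring genes and stay in the nucleus, where Malat1 collects in splicing speckles and Neat1 is the scaffold of paraspeckles. Kcnq1ot1 and Meg3 come from imprinted domains, in which only the copy from the father or only the copy from the mother is transcribed. Pvt1 lies beside the growth gene Myc. Gas5, Snhg1 and Snhg12 carry small nucleolar RNAs (snoRNAs), the guides of ribosomal RNA modification, in their introns, and their spliced RNAs begin with the pyrimidine-rich start of growth-regulated transcripts. p53 is known to induce several RNAs of this class, Neat1 and Pvt1 among them. No role is described here for Gm42047.

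The sequences around the transcription start are shown for the 3 snoRNA hosts and for Meg3, because their promoters can be compared letter by letter. They were taken from the RefSeq promoter table of GRCm38.p6, which held 6 of the 9 genes in 8 entries. Gm42047, Neat1 and Pvt1 are named only. Each line runs from 80 bases before the start to 50 bases from the start onward, and capitals mark TATATA before the start and TGACGTCA, the palindromic site of cAMP response element binding proteins. The second of the 2 entries of Gas5 and the first of the 2 of Meg3 are shown. The positions are chr1:161035086-161035215 for Gas5, chr4:132308598-132308727 for Snhg12, chr19:8723407-8723536 for Snhg1 and chr12:109540916-109541045 for Meg3, all on the plus strand.
Gas5: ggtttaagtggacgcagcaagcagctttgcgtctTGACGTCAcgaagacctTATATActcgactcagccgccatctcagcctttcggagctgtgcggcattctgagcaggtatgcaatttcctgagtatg
Snhg12: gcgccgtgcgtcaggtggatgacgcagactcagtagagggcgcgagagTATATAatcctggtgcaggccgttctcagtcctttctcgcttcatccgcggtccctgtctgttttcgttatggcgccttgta
Snhg1: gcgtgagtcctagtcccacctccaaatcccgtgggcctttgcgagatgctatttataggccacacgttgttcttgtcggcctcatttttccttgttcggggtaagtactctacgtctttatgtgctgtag
Meg3: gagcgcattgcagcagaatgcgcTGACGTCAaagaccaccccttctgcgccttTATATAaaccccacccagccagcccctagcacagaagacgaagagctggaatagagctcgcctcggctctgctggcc

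TATATA was found before the start in 3 of the 8 entries and TGACGTCA in 2 of 8. The entries of Kcnq1ot1, Malat1 and Snhg1 held neither, nor did the entries of Gas5 and Meg3 that are not shown. TATATA began 29 bases before the start of Gas5, 32 bases before that of Snhg12 and 27 bases before that of Meg3. These letters stood in the 80 bases before the start in 1.88% of the 32851 promoters of the table, and the motif reads the same on both strands. TGACGTCA, also the same on both strands, lay 46 bases before the start of Gas5 and 57 bases before that of Meg3, and was held by 1.79% of all promoters. The consensus half-site of p53 was in 8.36% of the promoters and in 0 of the 8 entries of these genes, which says only that these letters were not in the 300 bases searched. The motifs were chosen after the sequences had been seen. A match is a description of the letters and no sign that a factor binds.

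The libraries held between 26304526 and 31370714 counts. Trp53 and Cdkn1a, the cell cycle inhibitor induced by p53, served as the check of the genotypes. Trp53 had 215 to 269 counts in the LP+/+ livers, 125 and 176 in the LPfl/+ livers and 190 to 306 in the LP245/+ livers. Cdkn1a had 144 to 195 counts in the LP+/+ livers, 74 and 99 in the LPfl/+ livers and 14 to 27 in the LP245/+ livers. The summed markers of stellate, endothelial, Kupffer, bile duct and lymphoid cells overlapped between LP+/+ and each other genotype, with every marker detected in every liver. Each of the 7 hepatocyte markers was also detected in all livers, and their summed level ran from 109166 to 146126 CPM (counts scaled to the library total) in LP+/+, from 113329 to 114043 in LPfl/+ and from 111433 to 123071 in LP245/+. The share of counts from the mitochondrial genome was 5.88% to 6.90% in LP+/+ and 7.57% to 9.70% in the Cre-carrying livers. The library numbers in the labels formed 2 sets, the first with all LP245/+ livers and LP+/+ replicates 2 and 3, the second with both LPfl/+ livers and LP+/+ replicate 1. No set held both LP245/+ and LPfl/+ livers, so that comparison and the set cannot be told apart. RNA came from whole liver, in which fewer cells of a type and less RNA per cell cannot be told apart.

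Gm42047 was highest in LP+/+, lower in LPfl/+ and lowest in LP245/+. It is a long intergenic noncoding gene on chromosome 8 of GRCm38, from 121833247 to 121841178 on the plus strand, with 2 annotated transcripts. In LP+/+ it had 342.0, 1278 and 958.0 normalized counts, which are counts divided by the size factor of the library. In LPfl/+ it had 123.6 and 160.6, and in LP245/+ 57.9, 80.8 and 58.0. The 3 genotypes did not overlap, and the lowest LP+/+ liver was 2.13 times the highest liver with Cre. LP+/+ replicate 1 stood well below the other 2 LP+/+ livers. The mitochondrial share of counts was also split by Cre, as given above. The summed hepatocyte markers had an r of 0.67 with Gm42047 over the livers. The part of either in the result was not tested.

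The group means were 859.5 ± 475.9 (SD, n = 3) in the LP+/+ livers, 142.1 ± 26.1 (SD, n = 2) in the LPfl/+ livers and 65.6 ± 13.2 (SD, n = 3) in the LP245/+ livers. The mean of LP+/+ was thus 13.1 times that of LP245/+ and 6.05 times that of LPfl/+. The log2 fold change fitted by edgeR, given as a description, was -3.70 for LP245/+ against LP+/+, -2.59 for LPfl/+ against LP+/+ and -1.11 for LP245/+ against LPfl/+. The first 2 of these share the LP+/+ livers.

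Within a set of library numbers the difference was uneven in size. In the first set, the 2 LP+/+ livers had 17.1 times the mean of the 3 LP245/+ livers, and in the second set the single LP+/+ liver had 2.41 times the mean of the 2 LPfl/+ livers. With the set as a covariate the log2 fold changes became -1.26 for LPfl/+ against LP+/+ and -2.82 for LP245/+ against LPfl/+, in a fit where LP+/+ replicate 1 against replicates 2 and 3 is the only link between the sets. The part of the set in the result was not tested. Among all genes tested, 1.81% were lower in every liver with Cre than in every liver without, as Gm42047 was, and 2.54% were higher in every one. Of the other 8 noncoding genes, 0 did either.

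**Figure D1:**
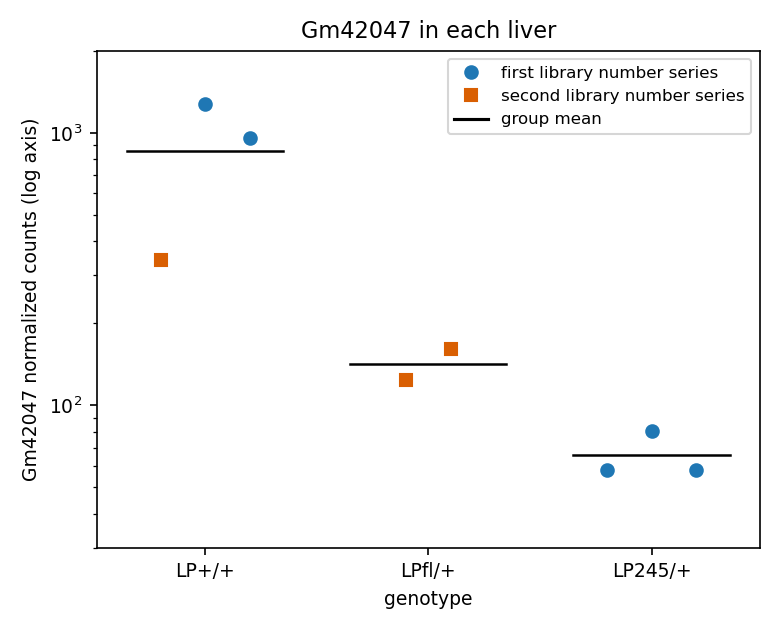
Normalized counts of Gm42047 in each liver (log axis) by genotype, with circles for the first and squares for the second set of library numbers and a line at the group mean. The LP+/+ livers lie between 342.0 and 1278, the LPfl/+ livers at 123.6 and 160.6 and the LP245/+ livers between 57.9 and 80.8.

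The sequence of Gm42047 is not its own along its whole length. Of its 5570 distinct stretches of 76 bases, the length of 1 read, 55.8% also occurred in other annotated transcripts, against 0.641% to 9.64% for the other 8 genes. Most of them were held by 5 other long intergenic noncoding genes, Gm47761, Gm43549, Gm47939, Gm48362 and Gm46349. Gm43549 and Gm48362 had 0 counts in all 8 livers, and the other 3 were not in the count table. STAR's gene counting takes reads that align to a single place, and how reads from the shared stretches were treated was not tested. The counts of Gm42047 thus rest on less sequence of its own than those of the other 8 genes.

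The nearest coding genes did not pass the test. Klhdc4, a gene of the kelch domain family 3678 bases away on the opposite strand, had 347.3 ± 18.8 normalized counts (SD, n = 3) in the LP+/+ livers, 247.3 ± 31.4 (n = 2) in the LPfl/+ livers and 288.0 ± 41.3 (n = 3) in the LP245/+ livers, and its adjusted p in edgeR was 0.831 for LP245/+ against LP+/+. In LPfl/+ against LP+/+ its log2 fold change was -0.48 (SE 0.15), with an adjusted p of 0.697, and its r with Gm42047 over the 8 livers was 0.59. Slc7a5, the large neutral amino acid transporter 39972 bases away, had 54.4 ± 10.5, 44.0 ± 9.2 and 59.1 ± 15.4 normalized counts (SD, n = 3, 2 and 3), with an adjusted p of 0.959. Gm20388, a gene model whose span holds Gm42047, had 0 counts in every liver.

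The 3 genes whose log2 CPM ran most like that of Gm42047 over the 8 livers were Exoc4 (Pearson r = 0.97), a subunit of the exocyst, Eda2r (r = 0.95), a receptor and known p53 target, and Ddx24 (r = 0.94), an RNA helicase. Eda2r had 19, 63 and 44 counts in the LP+/+ livers, 12 and 27 in the LPfl/+ livers and 7, 8 and 6 in the LP245/+ livers. It shared with Gm42047 the low value of LP+/+ replicate 1, and its LP245/+ livers lay below all others. By Spearman correlation 0 of these 3 genes remained among the closest 3. Gm42047 was chosen by its fall over these same livers, so genes that fall with genotype come out close to it. Nothing is read from which genes these are.

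In GRCm38, Malat1 lies on chromosome 19 at 5795690 to 5802672 and Neat1 at 5824708 to 5845478, both on the minus strand, and Snhg1 on the same chromosome at 8723475 to 8726443 on the plus strand. Kcnq1ot1 lies on chromosome 7 at 143203458 to 143296549 on the minus strand. On the plus strand, Meg3 lies on chromosome 12 at 109541001 to 109571726, Pvt1 on chromosome 15 at 62037986 to 62378096, Gas5 on chromosome 1 at 161034422 to 161038539 and Snhg12 on chromosome 4 at 132308623 to 132311024.

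None of these 8 noncoding genes passed the test between the genotypes. With edgeR and a cutoff of an absolute log2 fold change of 1 and an adjusted p of 0.05, 0 of the 8 passed in LP245/+ against LP+/+, in LPfl/+ against LP+/+ and in LP245/+ against LPfl/+. In the trend over the genotypes, where the adjusted p alone was used, 0 of 8 passed as well. Over all genes the shares that passed were 0.00606%, 0%, 0% and 0.0121%. The single gene of the first comparison was Cdkn1a. The share in the trend counts Gm42047, which was chosen by that pattern, so nothing is read from its place there. The smallest adjusted p among the 8 genes was 0.846, 0.771, 0.728 and 0.914 in the 4 tests. DESeq2 also called 0 of the 8 in each.

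At an unadjusted p of 0.05 the count was again 0 of 8 in every test, where the shares over all genes were 5.93%, 6.89%, 8.51% and 5.10%. The median log2 fold change of the 8 genes was 0.19 in LP245/+ against LP+/+ beside 0.00 over all genes tested, and 0.22 in LPfl/+ against LP+/+, beside -0.00103. In LP245/+ against LPfl/+ it was -0.06 beside 0.00. Since the first 2 comparisons share the LP+/+ livers, the 7 genes with a positive value in each are not independent.

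**Figure D2:**
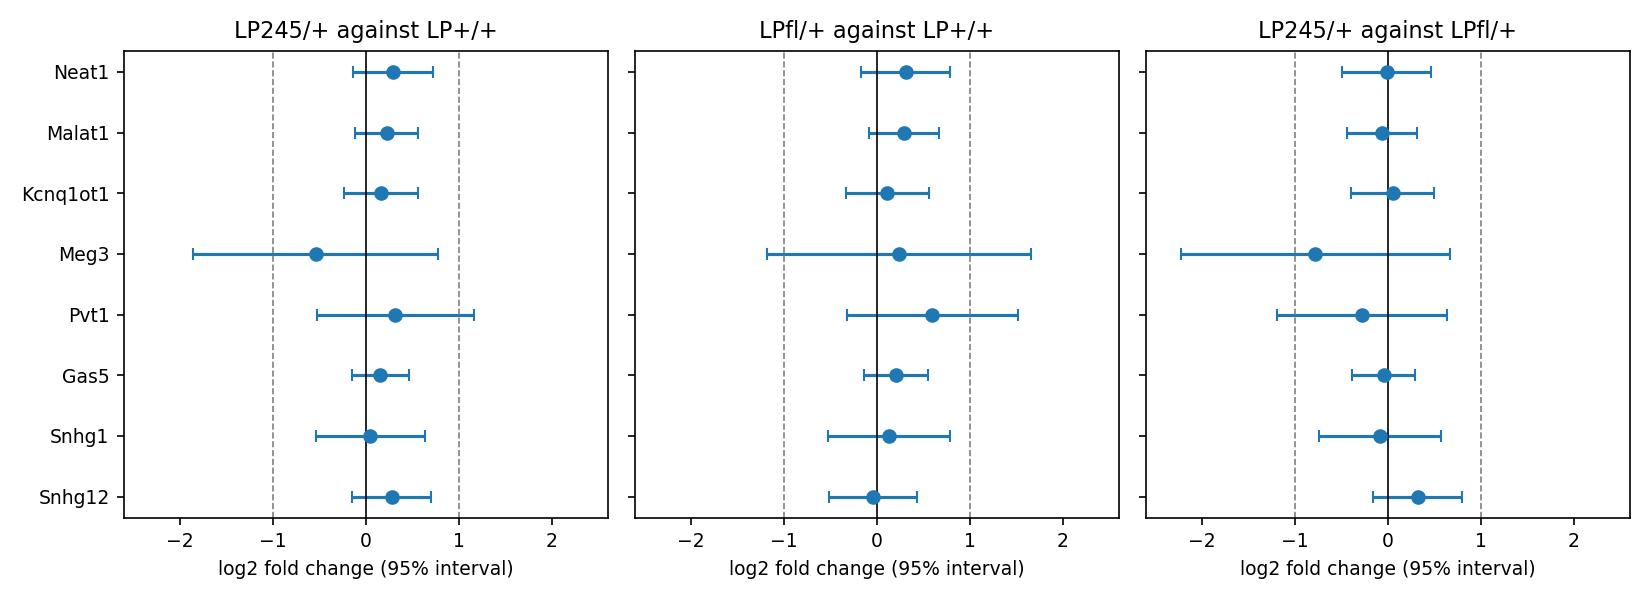
Log2 fold change of the 8 noncoding genes other than Gm42047 in the 3 comparisons, with the 95% confidence interval of edgeR's fit (horizontal bars) and dashed lines at the cutoff of 1 in each direction. Every interval includes 0, and those of Meg3 and Pvt1 reach past the cutoff in at least 1 direction in each panel.

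For 6 of the 8 genes the intervals kept within the cutoff. In LP245/+ against LP+/+ the 95% interval of the log2 fold change ran from -0.12 to 0.56 for Malat1, from -0.13 to 0.73 for Neat1, from -0.23 to 0.56 for Kcnq1ot1, from -0.15 to 0.46 for Gas5, from -0.54 to 0.64 for Snhg1 and from -0.14 to 0.70 for Snhg12. It was wider for Pvt1, from -0.53 to 1.16, and for Meg3, from -1.86 to 0.78, so that a change of 2-fold lay within the interval of either gene.

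Malat1 was by far the most abundant of the 9 and took 0.175% to 0.283% of all counts. It had 67426, 50844 and 53840 normalized counts in the LP+/+ livers, 67489.5 and 71736 in the LPfl/+ livers and 76883, 63968 and 58596 in the LP245/+ livers. Both LPfl/+ livers were above all LP+/+ livers, though the lower of them lay only just above LP+/+ replicate 1, and the LP245/+ livers overlapped both other groups. The log2 fold change was 0.22 (SE 0.15) for LP245/+ and 0.29 (SE 0.17) for LPfl/+, each against LP+/+. The first was 0.098 without LP245/+ replicate 1, but 0.36 with the set of library numbers as a covariate. The second was 0.054 with that covariate, but 0.42 without LP+/+ replicate 1. Livers of LPfl/+ lay wholly above LP+/+ in 2 of the 8 genes, Malat1 and Gas5, and in 12.6% of all genes. They lay wholly below in 0 of 8 and in 12.4% of all genes.

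Neat1 had 2415, 1684 and 1951 normalized counts in the LP+/+ livers, 2247 and 2728 in the LPfl/+ livers and 3144.5, 2281.5 and 1944 in the LP245/+ livers. The genotypes overlapped, with the highest value in LP245/+ replicate 1 and the lowest in LP+/+ replicate 2, the same livers as for Malat1. The log2 fold change was 0.30 (SE 0.19) for LP245/+ and 0.31 (SE 0.21) for LPfl/+ against LP+/+. For Neat1 too the first was smaller without LP245/+ replicate 1, at 0.070, but larger with the set as a covariate, at 0.45. The second was 0.051 with the set as a covariate, but 0.46 without LP+/+ replicate 1. Across the 8 livers Neat1 ran with Malat1, with a Pearson r of 0.96 and a Spearman rho of 0.90, and r was 0.96 on the deviations from the genotype means and 0.97 without the 2 livers farthest in Malat1. These are values of 8 libraries that share a depth and a normalization, given without a test. The summed hepatocyte markers ran the opposite way to Malat1 (r = -0.82) and Neat1 (r = -0.69), and their part in the spread was not tested.

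Frmd8, a coding gene 4224 bases from Neat1 on the same strand, had an adjusted p of 0.947 in LP245/+ against LP+/+ by edgeR. Malat1 and Neat1 shared 1 of the 3 genes most like each, Kdm5a, a histone demethylase, with r = 0.97 to Malat1 and 0.98 to Neat1. Its counts were between 1547 and 1836 in the 8 livers.

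**Figure D3:**
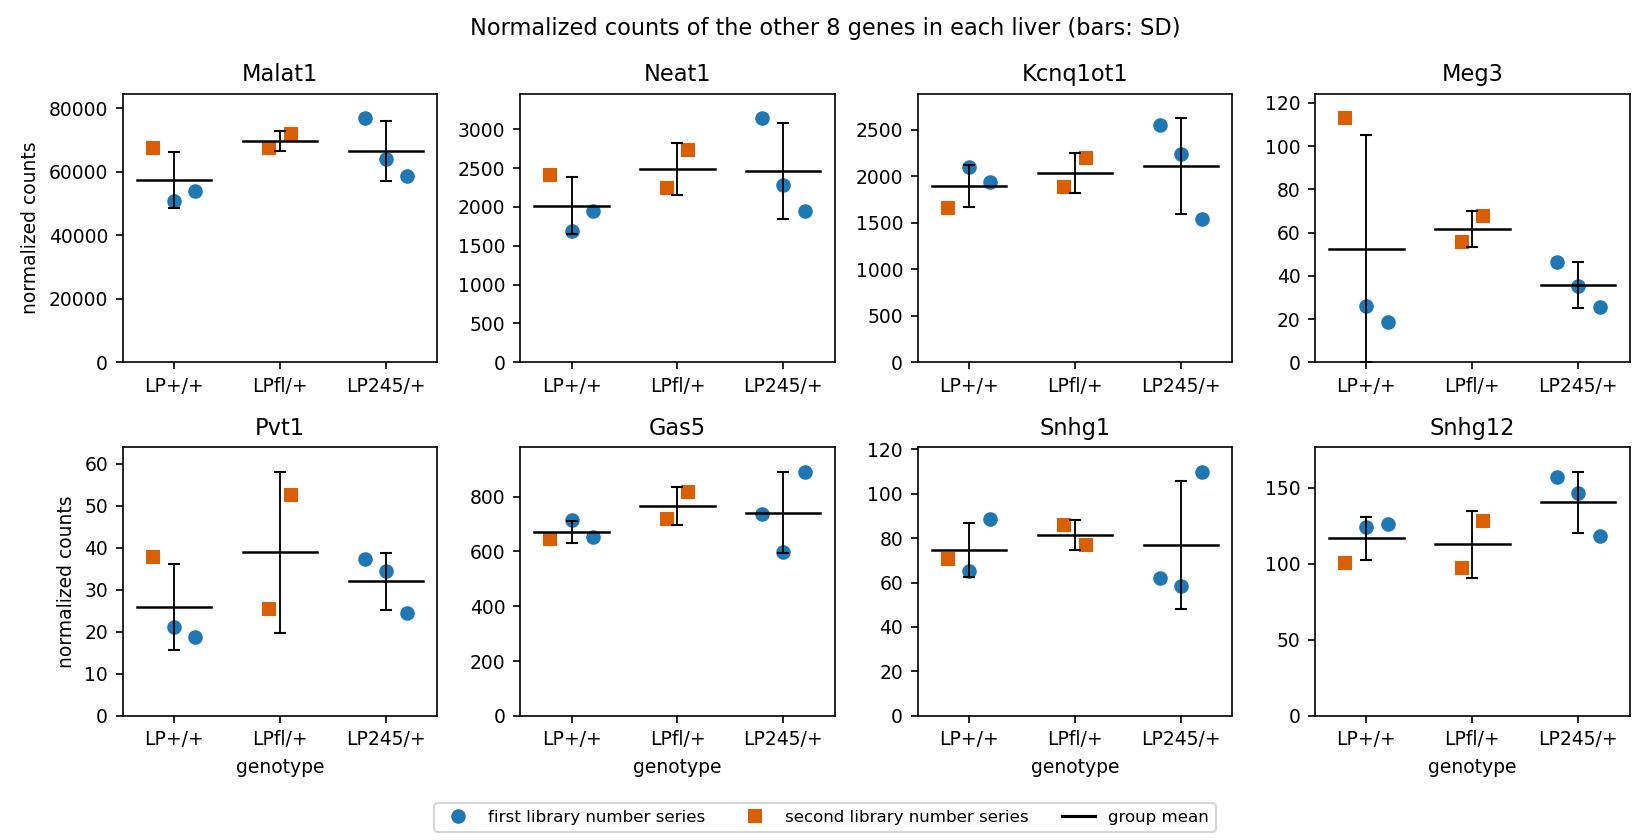
Normalized counts of the 8 noncoding genes other than Gm42047 in each liver by genotype, with lines at the group mean, bars of 1 SD and squares for the second set of library numbers. The genotypes overlap in most panels, and LP+/+ replicate 1 stands far above the other LP+/+ livers in Meg3, at 113.0 against 25.9 and 18.8.

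Kcnq1ot1, the paternal antisense RNA that silences genes of its imprinted domain, lay on chromosome 7 within the gene Kcnq1, which it crosses on the other strand. It had 1654, 2097 and 1941 normalized counts in the LP+/+ livers, 1885 and 2189 in the LPfl/+ livers and 2544, 2242 and 1536 in the LP245/+ livers. The LP245/+ livers held both the highest and the lowest of the 8 values. The log2 fold change was 0.16 (SE 0.18) for LP245/+ and 0.11 (SE 0.20) for LPfl/+ against LP+/+. Kcnq1 had only 32 to 43 counts. Cdkn1c, a cell cycle inhibitor of the same domain, had 20 to 39 counts and an adjusted p of 0.889 in LP245/+ against LP+/+. Whether strand was used in the counting was not stated, so reads of Kcnq1 and Kcnq1ot1 may be mixed where the 2 overlap.

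Meg3, the maternally expressed RNA of the imprinted Dlk1 domain on chromosome 12, varied more than the other 7 and was split by the set of library numbers. It had 113.0, 25.9 and 18.8 normalized counts in the LP+/+ livers, 55.7 and 67.7 in the LPfl/+ livers and 46.5, 35.4 and 25.5 in the LP245/+ livers. All 3 livers of the second set were above all 5 of the first. Meg3 alone of the 8 genes did this, as did 5.08% of all genes, and 0 of 8 were wholly lower in the second set, against 4.54% of all genes. The set accounted for 69.6% of the variance of its log2 CPM and the genotype for 17.1%, beside medians of 12.7% and 28.3% over all genes.

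The fitted direction of Meg3 turned with the set of library numbers in the fit. The log2 fold change was -0.54 (SE 0.59) for LP245/+ against LP+/+ and 0.24 (SE 0.63) for LPfl/+ against LP+/+, but 0.69 and -0.86 with the set as a covariate. Without LP+/+ replicate 1 the first of these was 0.69 and the second 1.47. LP245/+ livers lay wholly below LPfl/+ in Meg3 alone of the 8 genes and in 13.3% of all genes, and wholly above in 0 of 8 and in 12.1% of all genes. In LP245/+ against LP+/+, 0 of the 8 were wholly higher or lower, against 6.47% and 5.08% of all genes.

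Other transcripts of the Dlk1 domain were high in the same liver. Rian, the next maternal noncoding RNA, had 261.8, 51.9 and 46.1 normalized counts in the LP+/+ livers, 148.9 and 116.1 in the LPfl/+ livers and 59.9, 68.7 and 71.3 in the LP245/+ livers. LP+/+ replicate 1 exceeded the mean of the other 2 LP+/+ livers 5.05-fold in Meg3, 5.34-fold in Rian and 10.4-fold in Mirg, a microRNA host, and 6.12-fold in Rtl1, the paternal coding gene, though Mirg and Rtl1 had at most 41 and 18 counts. Over the 8 livers the Pearson r with Meg3 was 0.91 for Rian (Spearman rho 0.81), 0.83 for Mirg (rho 0.71) and 0.78 for Rtl1 (rho 0.67). Dlk1 had 0 to 2 counts. The summed hepatocyte markers had an r of -0.83 with Meg3, and their part was not tested.

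**Figure D4:**
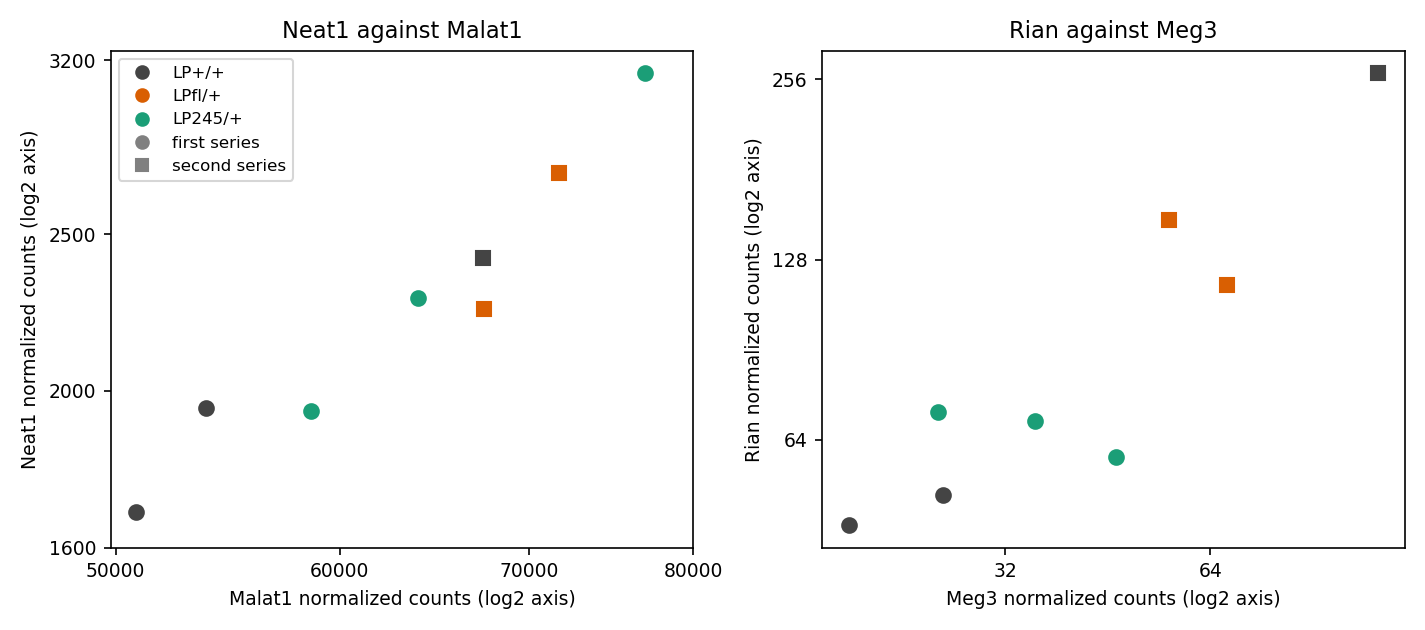
Normalized counts of Neat1 against Malat1 (left) and of Rian against Meg3 (right), on log2 axes, with 1 point per liver, colors for the genotype and squares for the second set of library numbers. Neat1 is higher where Malat1 is higher, whereas in the right panel the 3 squares hold the highest values of both genes.

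Pvt1 was among the least abundant of the 9. It had 37.7, 21.1 and 18.8 normalized counts in the LP+/+ livers, 25.3 and 52.5 in the LPfl/+ livers and 37.2, 34.4 and 24.4 in the LP245/+ livers, and the genotypes overlapped. The log2 fold change was 0.32 (SE 0.38) for LP245/+ and 0.60 (SE 0.41) for LPfl/+ against LP+/+. With the set of library numbers as a covariate these values were 0.69 and 0.055. Myc, 47612 bases away on the same strand, had 71, 30 and 37 counts in the LP+/+ livers, 32 and 185 in the LPfl/+ livers and 23, 40 and 22 in the LP245/+ livers. Both genes were highest in LPfl/+ replicate 2. The r of Myc with Pvt1 was 0.72 (Spearman rho 0.55), and the adjusted p of Myc by edgeR was 0.465 in LP245/+ against LPfl/+. The summed hepatocyte markers had an r of -0.74 with Pvt1, and their part was not tested.

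None of the 3 snoRNA hosts passed the test. Gas5 had 644.4, 715.6 and 651.2 normalized counts in the LP+/+ livers, 718.4 and 815.9 in the LPfl/+ livers and 736.8, 597.1 and 892.0 in the LP245/+ livers. The LPfl/+ livers were above all LP+/+ livers, the nearest pair at 718.4 and 715.6, and LP245/+ held the highest and the lowest value. Zbtb37, a zinc finger gene that overlaps Gas5 on the other strand, had 368 to 569 counts. Snhg1 had 70.5, 65.3 and 88.5 normalized counts in the LP+/+ livers, 86.1 and 76.7 in the LPfl/+ livers and 62.0, 58.6 and 110.0 in the LP245/+ livers. Its highest and lowest livers were those of Gas5, LP245/+ replicates 3 and 2.

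Snhg12 had 100.5, 123.9 and 126.1 normalized counts in the LP+/+ livers, 97.3 and 128.2 in the LPfl/+ livers and 157.1, 146.5 and 118.1 in the LP245/+ livers. Of the 3 LP245/+ livers, 2 were above all others. Its log2 fold change was 0.28 (SE 0.19) against LP+/+ and 0.32 (SE 0.21) against LPfl/+, with an adjusted p of 0.846 and 0.728 in edgeR. With the set of library numbers as a covariate the value against LPfl/+ was 0.0072, and the set accounted for 43.5% of the variance of Snhg12, beside 40.3% for the genotype. The r of Gas5 with Snhg1 was 0.60 and fell to -0.17 without the 2 livers farthest in Snhg1, and Snhg12 ran with Kcnq1ot1 (r = 0.77) rather than with Gas5 (r = -0.05) or Snhg1 (r = -0.49). The 10 annotated snoRNA genes within Gas5, the 8 within Snhg1 and the 5 within Snhg12 had 0 counts in all livers, so the guides themselves were not measured here.

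The wider families gave the same picture. Of 21 listed snoRNA host genes, 15 were tested and 11 were higher and 4 lower in LP245/+ than in LP+/+, with 0 past the cutoff and a median log2 fold change of 0.06. Those with the smallest unadjusted p were Snhg18, at 40.8 ± 1.5 (SD, n = 3) normalized counts in LP+/+ and 58.2 ± 5.8 (n = 3) in LP245/+, and Snhg15, at 36.3 ± 8.5 and 21.1 ± 3.5, with adjusted p-values of 0.796 and 0.831 in edgeR. Of 12 nuclear retained noncoding RNAs, 4 of the 9 genes among them, 10 were tested, 6 higher and 4 lower, with a median of 0.18. Tug1, a widely expressed nuclear RNA, had a log2 fold change of 0.27 (SE 0.14). The same list was higher in 10 of 10 genes in LPfl/+ against LP+/+ (median 0.26, beside -0.0010 over all genes). It was lower in 9 of 10 in LP245/+ against LPfl/+ (median -0.21, beside 0.0039), with 0 past the cutoff in both. Both comparisons share the LPfl/+ livers, so the counts are not independent. Nor are the genes, since Meg3, Rian and Mirg lie in the same domain and Malat1 ran with Neat1. With the library set as a covariate, LPfl/+ against LP+/+ gave 0.051 for Neat1, 0.054 for Malat1, 0.31 for Kcnq1ot1 and -0.86 for Meg3. In LP245/+ against LPfl/+ the genotype and the set cannot be told apart. The part of the set in these counts was not tested.

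Of 8 noncoding genes known to be induced by p53, 5 were tested, namely Neat1, Pvt1, Snhg1, Tug1 and Lncpint. Of these 0 passed the cutoff in LP245/+ against LP+/+. There 5 of 5 were higher, with a median log2 fold change of 0.30 beside 0.00 over all genes. Snhg1 was near 0, at 0.05 (SE 0.26), and at -0.31 without LP245/+ replicate 3. In LPfl/+ against LP+/+, which shares the LP+/+ livers, 5 of 5 were higher too, with a median of 0.31. In LP245/+ against LPfl/+ 5 of 5 were lower, with a median of -0.05. Of the untested genes, Trp53cor1 had 4 to 6 counts in LP+/+, 7 and 5 in LPfl/+ and 0 to 5 in LP245/+. Mir34a had 0 in every liver, and Mir34ahg was not found by that symbol in the count table. Lncpint, an RNA that p53 induces, had 184.7 ± 43.6 (SD, n = 3) normalized counts in the LP+/+ livers, 251.9 ± 32.1 (n = 2) in the LPfl/+ livers and 243.4 ± 31.4 (n = 3) in the LP245/+ livers. Cdkn1a was lower in LP245/+ than in LP+/+, with a log2 fold change of -2.91 (SE 0.27, adjusted p 0.0155 by edgeR).

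Of 18 imprinted genes 15 were tested, 7 higher and 8 lower in LP245/+ than in LP+/+. Igf2, a fetal growth factor, had 3.18 ± 1.08 (SD, n = 3) normalized counts in LP+/+ and 12.6 ± 1.2 (n = 3) in LP245/+, and Peg3, a zinc finger gene, had 147.6 ± 21.9 and 229.2 ± 54.0, both with an adjusted p of 0.795. The protein partners were also without a call. The 10 paraspeckle proteins had 7 higher and 3 lower, led by Rbm14 (log2 fold change 0.32, SE 0.11) and Sfpq (0.21, SE 0.09), both core paraspeckle proteins. The 9 nuclear speckle proteins had 7 higher and 2 lower, led by Srsf5 (-0.32, SE 0.14) and Srsf7 (0.19, SE 0.12), both splicing factors.

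The proteins of snoRNA particles, 3 higher and 5 lower of 8, were led by Nhp2 (-0.20, SE 0.10) and Gar1 (0.35, SE 0.32). This list was lower in 7 of 8 genes in LPfl/+ against LP+/+ and higher in 8 of 8 in LP245/+ against LPfl/+. The nonsense-mediated decay factors, which degrade the spliced RNAs of snoRNA hosts, were 6 higher and 4 lower of 10, led by Smg1 (0.24, SE 0.11) and Upf3a (-0.31, SE 0.18). Of 8 growth and proliferation genes, 2 were higher and 6 lower, led by Mki67 (-0.48, SE 0.13) and Top2a (-0.19, SE 0.18). In each of these lists 0 genes passed the cutoff in any of the 3 comparisons.

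The word abundant held for some of the 9 genes and not for others. Per length, as TPM, a level scaled to exon length and library that was computed from the counts, the means over 8 livers were 744.9 for Malat1, 15.5 for Gas5, 9.03 for Neat1, 5.49 for Gm42047, 4.22 for Snhg12, 2.10 for Snhg1, 1.76 for Kcnq1ot1, 0.368 for Pvt1 and 0.222 for Meg3. Malat1 was above Gas5, Gas5 above Neat1, Snhg12 above Snhg1 and Kcnq1ot1 above Pvt1 in 8 of 8 livers. Neat1 and Gm42047, Gm42047 and Snhg12, and Snhg1 and Kcnq1ot1 overlapped, as did Pvt1 and Meg3. Among 7763 long noncoding genes in the table, Malat1 ranked 2 per length and Gas5 46, whereas Pvt1 ranked 1592 and Meg3 1966. In LP+/+ the mean TPM of Gm42047 was 12.3, above Neat1 at 7.96. Its mean was 2.09 in LPfl/+, below Snhg1 at 2.27, and 0.928 in LP245/+, below Kcnq1ot1 at 1.82. Single livers went the other way. Gm42047 had 5.13 against 9.85 for Neat1 in LP+/+ replicate 1, and 2.40 against 2.18 for Snhg1 in LPfl/+ replicate 2. The gene was chosen by its fall with genotype, so nothing is read from these places. With the length of the longest transcript in place of all exons, Snhg12 passed Gm42047 and the rest of the order held.

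The spread between livers was widest in Gm42047 and Meg3. Gm42047 was chosen for its fall across these same livers, so nothing is read from its wide spread. The highest liver was 22.1 times the lowest in Gm42047 and 6.01 times in Meg3, against 2.79 times in Pvt1, 1.88 times in Snhg1, 1.87 times in Neat1 and 1.49 to 1.66 times in the other 4. The SD of the log2 CPM of Meg3 was above that of 96.4% of the genes tested, and that of Pvt1 above 81.1%. For the other 6 genes the figures ran from 39.0% for Gas5 to 61.1% for Neat1.

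The 3 genes most like each of 3 further members by Pearson r over the 8 livers were Gstp-ps, Sort1 and Tbc1d30 for Meg3 (r from 0.97 to 0.98), Dcp1a, Casp16-ps and Gm37893 for Pvt1 (0.95 to 0.96), and Zfp948, Prorsd1 and Ergic2 for Gas5 (0.95 to 0.96). Sort1, a sorting receptor of hepatocytes, had 1344, 619 and 597 counts in the LP+/+ livers, 891 and 944 in the LPfl/+ livers and 676, 626 and 552 in the LP245/+ livers, the same split between the sets of library numbers as Meg3. Between 1 and 12 genes had an r above 0.95 with any 1 of the 9, and these values are given as a description. By Spearman correlation, 1 of the 3 genes remained among the closest 3 for each of Meg3, Pvt1, Gas5 and Neat1, and 0 of 3 for Malat1.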

How the data were processed

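RNA from 8 livers had been sequenced as stranded total RNA libraries with 76-base paired reads. The authors aligned the reads to GRCm38 with STAR and deposited raw counts per gene. The annotation release and the strand setting were not given in the sources used here. Symbols came from GENCODE, which named 49326 of the 49585 genes. Counts were tested with edgeR 4.0.16 (quasi-likelihood, TMM scaling, filterByExpr, all 8 livers in 1 fit, R 4.3.3), with an adjusted p (Benjamini-Hochberg over 16496 genes) of at most 0.05 and a log2 fold change of 1 or more in size. For the trend, genotypes were coded 1, 2 and 3 and the adjusted p alone was used. Normalized counts are counts over DESeq2 1.42.0 size factors. Nothing states that library numbers mark a preparation batch, and the p-values measure the spread between these mice. Named beside the 9 genes were the nearest and overlapping genes, the 3 genes most correlated with each, and the 2 genes of each list with the smallest unadjusted p. The likest genes of Kcnq1ot1, Snhg1 and Snhg12 and some neighbouring genes are not reported here. The members and lists were chosen with earlier results of these data known. The fits were tested on simulated data.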

Additional observations from a re-analysis of the deposited data

How the results depend on the processing

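The call of 0 of 8 genes past the cutoff was kept under every alternative run: DESeq2, relative log expression size factors, no filter on low counts, at least 10 counts in every liver, no fold cutoff, the replicate block, the set of library numbers as a covariate, only the groups compared, and each liver left out. The fold changes themselves moved, and the changes of sign below are between values that had not passed. With the set as a covariate the sign turned for Meg3 (log2 fold change 0.69 for LP245/+ against LP+/+, -0.86 for LPfl/+ against LP+/+ and 1.55 for LP245/+ against LPfl/+), for Snhg12 (0.17 for LPfl/+ against LP+/+) and, in LP245/+ against LPfl/+, for Neat1 (0.40), Malat1 (0.30), Kcnq1ot1 (-0.23) and Pvt1 (0.63). With the replicate block the sign turned for Neat1 in LP245/+ against LPfl/+ (0.033). Same-numbered livers had an r from -0.082 to 0.034 between their deviations from the genotype means. With 2 or 3 livers per genotype such deviations are tied to each other, so these values cannot decide whether the numbers pair the mice. The block left 0 genes of all called in LP245/+ against LP+/+ in place of 1, and 0 in the trend in place of 2.

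Leaving out 1 liver at a time gave ranges that crossed 0. In LP245/+ against LP+/+ they ran from -0.0041 to 0.34 for Kcnq1ot1, from -0.95 to 0.69 for Meg3, from -0.0059 to 0.29 for Gas5 and from -0.31 to 0.21 for Snhg1. In LPfl/+ against LP+/+ they ran from -0.016 to 0.20 for Kcnq1ot1, from -0.17 to 1.47 for Meg3, from -0.035 to 1.02 for Pvt1 and from -0.27 to 0.13 for Snhg12. In LP245/+ against LPfl/+ they ran from -0.23 to 0.13 for Neat1, from -0.18 to 0.023 for Malat1, from -0.10 to 0.24 for Kcnq1ot1, from -0.71 to 0.34 for Pvt1, from -0.20 to 0.085 for Gas5 and from -0.43 to 0.077 for Snhg1. Other ranges kept their sign but not their size (Malat1 and Neat1 in LP245/+ against LP+/+, for example), and Meg3 in LP245/+ against LPfl/+ reached -1.01 without LP245/+ replicate 1. The values of Gm42047 ran from -4.08 to -3.31, from -2.96 to -2.20 and from -1.29 to -0.91 in the 3 comparisons. Scaling to the library total left its slope per genotype step at -1.76, from -1.77. Gm42047 was chosen for its fall over these same livers, so nothing is read from its kept direction.

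The number of all genes past the cutoff moved more. In LP245/+ against LP+/+ it was 1, and 10 by DESeq2, 20 without the filter and 3 with the set as a covariate. In LPfl/+ against LP+/+ it was 0, and 9, 14 and 3, with 59 without LP+/+ replicate 1. In LP245/+ against LPfl/+ it was 0, and 54, 122 and 10, with 51 from a fit of these groups only and 47 without LP+/+ replicate 1. In the trend it was 2, and 6 by DESeq2 and 4 without the filter. The cause of these shifts was not tested.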
